A study of Mus musculus with 16 samples.

Results

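The collagen genes are the protein-coding genes named Col, a type number, a and a chain number, and 44 of the 25719 genes in the table of mouse liver carried such a name. The choice used names and gene type only, and no measured value. They were sorted into 11 fibrillar collagens, 6 basement membrane collagens of type IV and 27 others, the last made up of 6 chains of type VI, 9 fibril-associated chains, 2 multiplexins, 4 transmembrane chains and 6 network, anchoring and remaining chains. The study asked how NKG2D, an activating receptor of natural killer and T cells that Klrk1 encodes, takes part in diet-induced liver disease. RNA of whole liver was sequenced from 16 male mice that entered the feeding at 8 to 12 weeks of age, 1 library for each mouse. WT mice of the C57BL6J strain received a normal chow diet (NCD, n = 4) or the fat-, fructose- and cholesterol-rich steatosis-steatohepatitis diet (SSD, n = 5) for 3 weeks, and mice with the strain label NKG2D and the genotype Klrk1-/- received NCD (n = 4) or SSD (n = 3). The Klrk1-/- mice lack the receptor in all cells, so a difference between genotypes cannot be placed in a cell type, and genotype and strain label cannot be told apart.

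Collagens are built from 3 chains wound around each other, a structure that needs the smallest amino acid, glycine, at regular places in a Gly-X-Y repeat. Types I, III and V form the fibrils that accumulate in a scarring liver, where stellate cells and portal fibroblasts are their best-known makers, while type IV forms the network of basement membranes and type VI thin beaded filaments. Fibril-associated collagens sit on the surface of fibrils, and the multiplexins, types XV and XVIII, carry sugar chains and belong to the basement membrane zone.

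Sequencing gave 19892025 to 28936707 reads per mouse over the genes of the table, and the collagens took 0.0992% to 0.255% of them. Levels are normalized counts, which are reads divided by a size factor for each mouse. Klrk1 itself was at 20.1 to 28.7 in WT mice on NCD, 32.9 to 71.1 in WT mice on SSD, 1.23 to 8.71 in Klrk1-/- mice on NCD and 0.966 to 4.29 in Klrk1-/- mice on SSD, so that every Klrk1-/- mouse lay below every WT mouse. The summed level of 5 hepatocyte markers was the highest of all marker lists in every group, as in liver, and it was 1448700 to 1847400 in WT mice on SSD against 2208700 to 2539600 on NCD. In bulk tissue, fewer cells of a type and less RNA per cell cannot be told apart. Values for single mice are listed in the order of their numbers in the labels, which are 1, 2, 3 and 5 for WT mice on NCD and start at 1 without a gap in the other groups.

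The coding sequences set the fibrillar chains apart without any expression value. Counted as a GGN codon at each repeat of the frame, the longest unbroken run of Gly-X-Y repeats was 216 to 344 in the 11 fibrillar genes (median 338), 39 to 66 in the type IV genes (median 43.5) and 23 to 113 in the others (median 45). Exons of 54 bases, which hold 6 such repeats, numbered 21 to 33 in the fibrillar genes, 1 to 3 in the type IV genes and 0 to 28 in the others. An exon of that length from each of the 3 main fibril chains shows the repeat, with the glycine codons in capitals (reference genome GRCm39, plus strand, GENCODE exons):
Col3a1 coding exon 6, chr1:45364520-45364573: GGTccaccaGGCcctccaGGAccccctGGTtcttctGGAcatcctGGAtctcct
Col1a1 coding exon 8, chr11:94830730-94830783: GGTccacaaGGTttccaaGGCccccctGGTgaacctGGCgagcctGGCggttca
Col1a2 coding exon 8, chr6:4515481-4515534: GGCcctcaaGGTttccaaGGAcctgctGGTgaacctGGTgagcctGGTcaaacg

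Upstream of the start sites, none of 3 sequence words searched was present in all collagen genes. A CCAAT word, searched as CCAAT or ATTGG in the 250 bases before the start, was present in 15 of 44 collagen genes (34.1%) and in 36.5% of 21571 protein-coding genes. TATAAA or TTTATA was present in 7 (15.9%, against 11.9% of all), and GGGCGG or CCGCCC in 21 (47.7%, against 36.4% of all). These matches are descriptions of the letters. The 150 bases before the starts of Col1a1 and Col3a1, the leading chains of types I and III, and of Col15a1, the chain that was lower in Klrk1-/- mice on both diets, are given with these words in capitals. For Col1a1 and Col3a1 the GENCODE start is that of the deposited table, and for Col15a1 it lies 579 bases before the deposited start, which the coordinates of the gene given further on follow:
Col1a1, chr11:94826900-94827049, plus strand: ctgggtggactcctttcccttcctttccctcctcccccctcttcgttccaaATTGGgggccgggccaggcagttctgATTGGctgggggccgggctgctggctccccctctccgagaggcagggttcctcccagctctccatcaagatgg
Col3a1, chr1:45350548-45350697, plus strand: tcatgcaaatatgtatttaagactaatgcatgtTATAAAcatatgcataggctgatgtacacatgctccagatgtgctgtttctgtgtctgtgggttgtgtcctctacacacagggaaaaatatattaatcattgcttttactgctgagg
Col15a1, chr4:47207432-47207581, plus strand: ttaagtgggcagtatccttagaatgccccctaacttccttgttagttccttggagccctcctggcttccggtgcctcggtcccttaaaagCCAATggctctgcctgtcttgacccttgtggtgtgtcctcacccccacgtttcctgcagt
Col1a1 held ATTGG at 2 places, Col3a1 held TATAAA once and Col15a1 held CCAAT once.

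In WT liver on NCD, type XVIII was by far the most abundant collagen per length. Col18a1 (chr10:76888012-77002382), whose product releases endostatin and is made by hepatocytes, stood at 3728 ± 265 normalized counts per kb of transcript (SD, n = 4), with no overlap with the next gene. Below it came Col5a3 (382 ± 164), Col27a1 (345 ± 108) and Col3a1 (185 ± 15.9), and each of these 3 neighbours overlapped the one before or after it. Col14a1 (154 ± 12.1) and Col4a1 (121 ± 7.69) followed, each separated from its neighbours in the order, and the type I chains Col1a2 and Col1a1 were at 86.4 ± 15.6 and 68.2 ± 19.3 per kb, mixed with Col4a2 and Col6a1. Of the 44 genes, 26 had a mean of at least 10 normalized counts over the 16 mice, which was the minimum for testing where it held over the mice compared. Col8a2 (mean 10.8) and Col4a4 (11.4) were just inside that limit and Col24a1 (9.67) and Col6a6 (8.60) just outside. Col2a1, Col9a1, Col9a2, Col10a1, Col11a1, Col19a1 and Col26a1, several of them known as cartilage collagens, had 3 reads or fewer in every mouse, and 4 of these 7 had none. The other 11 genes below the limit, which were Col24a1, Col6a6, Col9a3, Col6a5, Col4a3, Col23a1, Col4a6, Col28a1, Col17a1, Col22a1 and Col6a4, had means from 9.67 down to 0.800.

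Per length, the fibrillar class made up 20.2% ± 4.38 of collagen expression in WT mice on NCD (SD, n = 4), 33.3% ± 8.30 in WT mice on SSD (n = 5), 25.2% ± 0.941 in Klrk1-/- mice on NCD (n = 4) and 22.7% ± 3.52 in Klrk1-/- mice on SSD (n = 3). Type IV made up 3.85% ± 0.251, 6.36% ± 1.57, 3.93% ± 0.352 and 4.92% ± 0.576 in the same order. Both WT groups overlapped in the fibrillar share, since they spanned 16.1% to 26.2% and 23.0% to 46.2%. Col18a1 alone held 68.5%, 50.01%, 64.1% and 62.5% of the total in the 4 groups. Without it, the summed level of the other collagens per kb was 1315, 1626, 1836 and 2132 in WT mice on NCD and 5709, 2856, 2993, 2656 and 1751 in WT mice on SSD. It was 1997, 2134, 2194 and 2020 in Klrk1-/- mice on NCD and 2044, 2099.5 and 1607 on SSD. Mouse 1 of the WT mice on SSD was thus the highest of all 16, and mouse 5 of that group lay inside the NCD range.

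**Figure D1:**
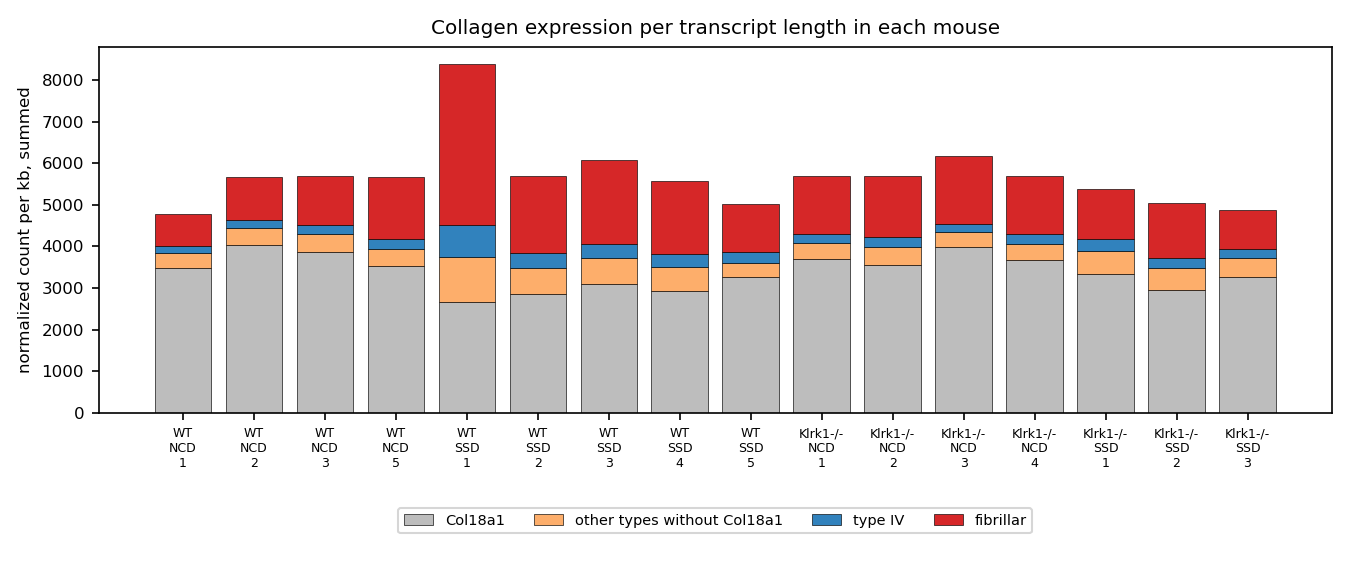
Summed collagen expression in each mouse, as normalized counts per kb of transcript, stacked by Col18a1, the other non-fibrillar and non-type IV chains, type IV chains and fibrillar chains. Col18a1 is the largest portion of every bar except in mouse 1 of the WT mice on SSD, where fibrillar chains reach 46.2% of the total and Col18a1 31.9%.

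SSD against NCD in WT mice asked what the diet did to the collagens while NKG2D was present. Of 26 collagens tested with limma over all 13091 genes, 12 rose (17.3% of all genes tested rose) and 4 fell (17.6% of all fell) at an adjusted p under 0.05, and 18 had an unadjusted p under 0.05 (45.4% of all genes did). The median log2 fold change of the 26 was 0.67, and that of all genes tested was -0.0015. Col8a1 and Col8a2, network-forming chains, had log2 fold changes of 0.29 ± 0.43 and 0.54 ± 0.42, neither past the threshold. Rises were found in 4 of 8 fibrillar chains, 2 of 4 type IV chains, 3 of 3 type VI chains and 3 of 4 fibril-associated chains. With every mouse scaled to the same total, 16 rose and 2 fell, where 48.2% of all genes tested rose and 5.5% fell. The falls were in both multiplexins, the fibril-associated Col20a1 and the transmembrane Col25a1. Leaving out NCD mouse 1 or NCD mouse 2 left 2 rises of 27 and 25 collagens tested, when 13.2% and 14.5% of all genes still rose, so that the share of collagens was then below that of all genes. Leaving out SSD mouse 2, 3 or 4 left 7 rises (13.8% to 14.9% of all genes), and the count was 12 without SSD mouse 1 and 13 without SSD mouse 5 (16.9% and 17.4% of all genes). Without SSD mouse 1, 9 of the 12 were shared with the full comparison, Col5a2, Col6a2 and Col14a1 were lost, and Col3a1, Col5a3 and Col13a1 were gained. Leaving out NCD mouse 3 left 1 fall and leaving out NCD mouse 2 left 2 (14% and 15.6% of all genes fell).

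Among the fibrillar chains, Col1a1 (chr11:94827050-94843868), the more abundant partner in the type I molecule, was at 270.1, 354, 525 and 468 normalized counts in WT mice on NCD and 5027, 1432, 1499, 1324 and 358 on SSD. SSD mice 1 to 4 lay above every NCD mouse and SSD mouse 5 lay within the NCD values. Col1a1 rose 3.53-fold (log2 fold change 1.82, SE 0.54, adjusted p = 0.0223). Its partner Col1a2 (chr6:4504814-4541544) was at 361, 447, 562 and 483 on NCD and 3903, 1272, 1328, 1217 and 428 on SSD, with the same 4 SSD mice above the NCD range, and rose by the same test (log2 fold change 1.48, SE 0.45, adjusted p = 0.0238). Col3a1 (chr1:45350698-45388866), the chain of type III, which shares fibrils with type I, was at 999.8, 981, 1164 and 983 on NCD and 9965, 2859.8, 2655, 2431 and 756 on SSD. Here mouse 5 was below every NCD mouse, mouse 1 was far above the rest, and the difference missed the threshold (log2 fold change 1.38, SE 0.51, adjusted p = 0.0540). It passed under 7 of 22 alternatives, among them edgeR, DESeq2 and the fits without SSD mouse 1 or without SSD mouse 5.

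Type V nucleates type I fibrils. Col5a1 (chr2:27776437-27929526) was at 174, 192, 220.3 and 270.4 on NCD and 771, 418, 352, 370.4 and 226 on SSD, and rose (log2 fold change 0.90, SE 0.27, adjusted p = 0.0243), with mouse 5 inside the NCD range. Col5a2 (chr1:45413481-45542442), which lies next to Col3a1 on chromosome 1, was at 60.3, 75.5, 113 and 64.0 on NCD and 471, 193, 184, 198 and 61.2 on SSD, and also rose (log2 fold change 1.26, SE 0.43, adjusted p = 0.0411), but passed under only 9 of 22 alternatives without a fold limit. Again only mouse 5 of the SSD mice overlapped the NCD values. The third chain of type V differed, since Col5a3 (chr9:20681346-20726363) was at 1446, 1909, 2312 and 3787 on NCD and 1838, 3414, 3708, 3387 and 3401 on SSD and did not pass (log2 fold change 0.46, SE 0.26, adjusted p = 0.185). Mouse 1, the highest SSD mouse for the other type V chains, was the lowest for Col5a3. Col27a1 (chr4:63132241-63253228), a fibrillar chain known from cartilage, was at 1591, 2688, 2612 and 3601 on NCD and 339, 1704, 2767, 1842 and 2149.7 on SSD (log2 fold change -0.80, SE 0.49, adjusted p = 0.228), and its lowest value was also in SSD mouse 1. Col11a2, the remaining fibrillar chain tested, had a log2 fold change of -0.30 ± 0.25 (adjusted p = 0.381).

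Of type IV, the pair that forms the common basement membrane molecule rose. Col4a1 (chr8:11248423-11362826) was at 733, 780.3, 832 and 844 on NCD and 3308, 1528, 1498, 1241 and 1035 on SSD. All 5 SSD mice lay above all 4 NCD mice (log2 fold change 0.98, SE 0.26, adjusted p = 0.0118, exact two-sided permutation p = 0.0159, the smallest possible), and the rise passed under all 22 alternatives without a fold limit. Col4a2 (chr8:11362805-11499287), which starts head to head with Col4a1 on the opposite strand, was at 484, 508, 554 and 664 on NCD and 1577, 845, 784, 694 and 612 on SSD, with mouse 5 inside the NCD range (log2 fold change 0.63, SE 0.23, adjusted p = 0.0468). Col4a2 passed under only 13 of 22 alternatives without a fold limit, and was not called without NCD mouse 1, 2 or 3 or SSD mouse 2 or 3. Its log2 ratio to Col4a1 in the same mouse was -0.57 ± 0.13 on NCD and -0.92 ± 0.12 on SSD (SD), without overlap (exact two-sided permutation p = 0.0159, adjusted over 32 ratio tests p = 0.229). Both genes overlap at their starts, and whether reads were counted by strand was not stated. Col4a4 and Col4a5 had log2 fold changes of 0.63 ± 0.39 and 0.77 ± 0.36 (adjusted p = 0.226 and 0.115).

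The 3 type VI chains, which assemble into one molecule, all rose. Col6a1 (chr10:76544626-76562002) was at 200.2, 247, 326 and 278 on NCD and 1034, 498, 542, 528 and 229 on SSD (log2 fold change 0.97, SE 0.32, adjusted p = 0.0346). Col6a2 (chr10:76431596-76459464), its neighbour on chromosome 10, was at 135, 129.9, 218 and 161 on NCD and 786, 337, 415, 348 and 127 on SSD (log2 fold change 1.13, SE 0.39, adjusted p = 0.0405). Col6a3 (chr1:90693645-90771693) was at 182, 213, 353 and 320.0 on NCD and 1226, 440.2, 563, 526 and 307 on SSD (log2 fold change 1.08, SE 0.33, adjusted p = 0.0241). In each of the 3, SSD mice 1 to 4 lay above the NCD range and mouse 5 did not, and Col6a2 passed under 11 of 22 alternatives. Of the fibril-associated chains, Col14a1, which binds decorin and tunes fibril packing, was at 1038, 1078, 948 and 910.4 on NCD and 2848, 1857, 1524, 1572 and 866 on SSD (log2 fold change 0.70, SE 0.25, adjusted p = 0.0457). Mouse 5 was its lowest value in both groups, and it too passed under 11 of 22 alternatives. Col16a1 (log2 fold change 0.78, SE 0.25, adjusted p = 0.0295) and Col12a1 (log2 fold change 0.76, SE 0.21, adjusted p = 0.0160) rose as well. Of the 12 rises, 1 (Col4a1) was without overlap between the groups, against 72.5% of all genes called higher.

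**Figure D2:**
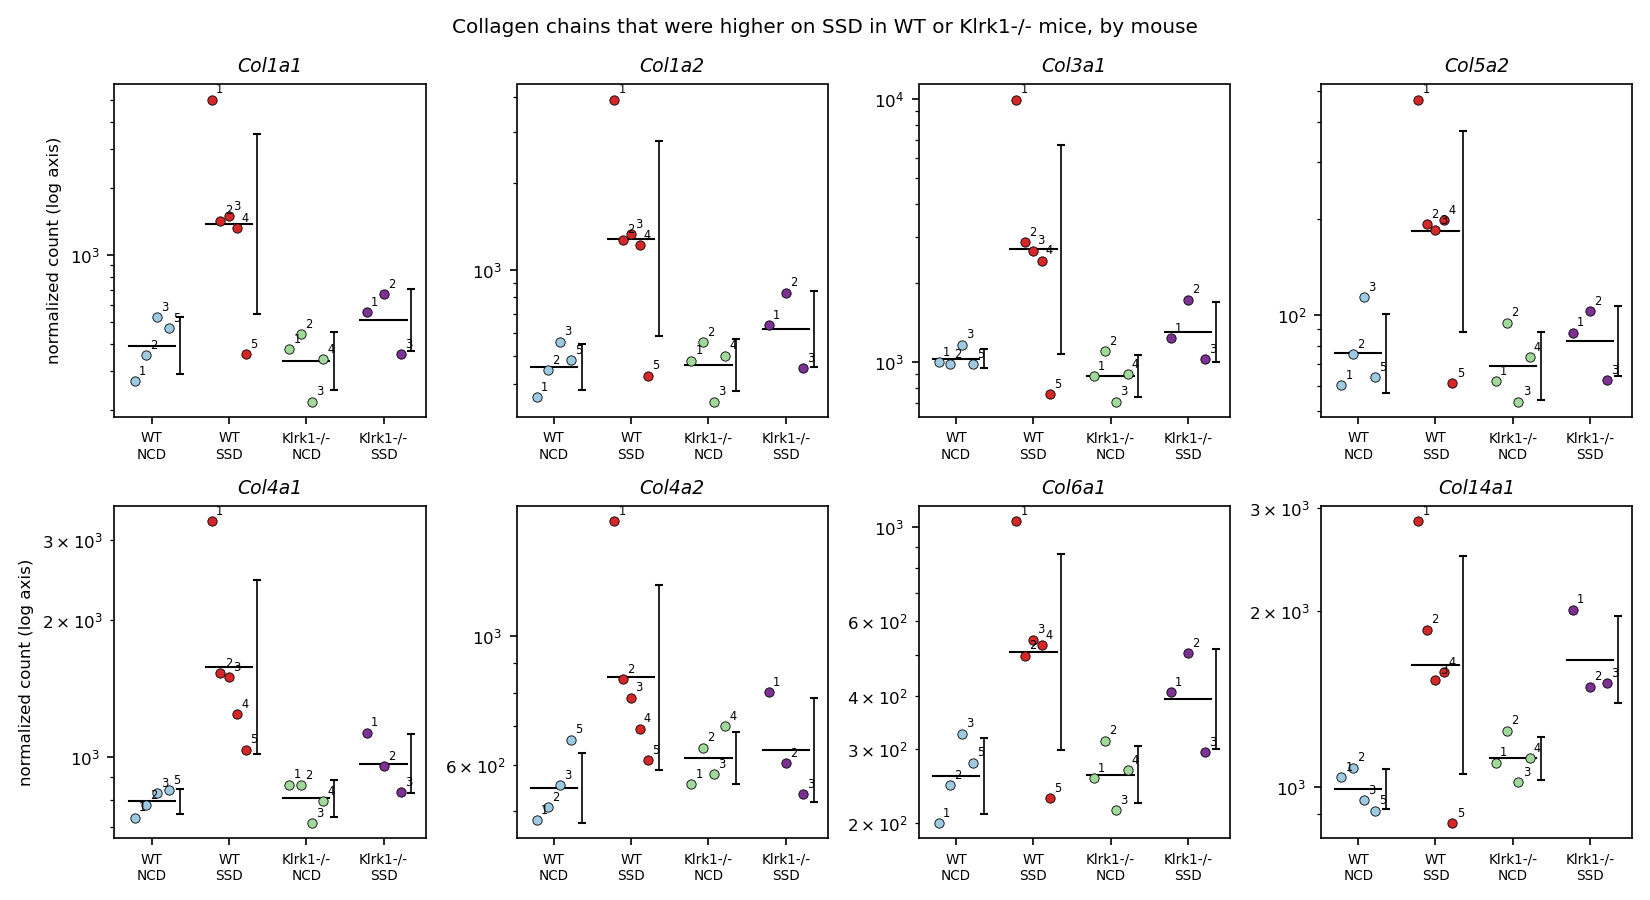
Normalized counts of 8 collagen chains in every mouse by genotype and diet (log axis), with points numbered by mouse, a line at the geometric mean and a bar for the SD on the log2 scale. WT mouse 1 on SSD is the highest point for each chain (5027 for Col1a1), and WT mouse 5 on SSD lies near the NCD mice (358 for Col1a1).

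The 4 falls were without overlap between the groups, as were 81% of all genes called lower. Col18a1 was at 19462, 22587, 21590.0 and 19792 in WT mice on NCD and 14949, 15922, 17307, 16346 and 18236 on SSD. Every SSD mouse was below every NCD mouse (log2 fold change -0.33, SE 0.0986, adjusted p = 0.0214), but with every mouse scaled to the same total the log2 fold change was 0.011, a scaling that moves the median of all genes to 0.342. Its gene overlaps Slc19a1, a folate carrier gene. Col15a1 (chr4:47208161-47313167), the second multiplexin, was at 240.0, 239.6, 297 and 257 on NCD and 144, 231, 201, 126 and 162 on SSD, again without overlap (log2 fold change -0.61, SE 0.17, adjusted p = 0.0163). Its fall was not called with every mouse scaled to the same total or without NCD mouse 3. Col15a1 and Col20a1 are shown by mouse because their differences stood out once values were seen.

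Col20a1 (chr2:180628328-180660156) is a fibril-associated chain. It was at 71.2, 92.6, 128 and 135 on NCD and 19.3, 24.5, 29.5, 29.3 and 33.5 on SSD, and fell without overlap (log2 fold change -1.91, SE 0.23, adjusted p = 1.01e-04), under all 22 alternatives without a fold limit. The neuronal receptor gene Chrna4 on the opposite strand ends 17 bases beyond the end of Col20a1, tail to tail. Chrna4 was at 207 to 1603 in WT mice on NCD and 0 to 3.55 on SSD, and at 1311 to 3972 and 0 to 3.21 in the Klrk1-/- groups, and its part in the Col20a1 values was not tested. Col25a1, a transmembrane chain first found in amyloid plaques, was at 10.9, 36.2, 30.0 and 11.04 on NCD and 5.31, 3.38, 2.86, 5.33 and 1.63 on SSD, low levels that fell without overlap (log2 fold change -2.17, SE 0.49, adjusted p = 0.00537). Its mean on SSD was 3.70, so it passed the minimum for testing only through the NCD mice, and 3 falls stand without it.

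**Figure D3:**
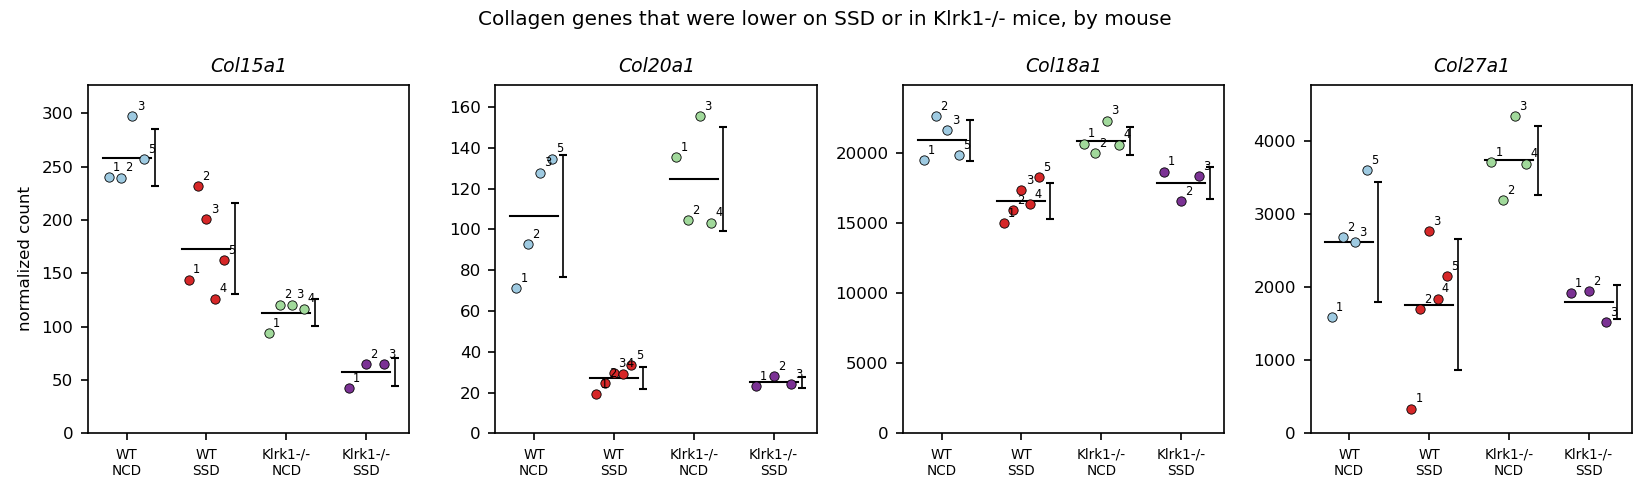
Normalized counts of Col15a1, Col20a1, Col18a1 and Col27a1 in every mouse by genotype and diet (linear axes from 0), with points numbered by mouse, a line at the mean and a bar for the SD. Col15a1 is lower in Klrk1-/- than in WT mice on each diet and Col20a1 drops on SSD in both genotypes, for example from 71.2 or more to 33.5 or less in WT mice.

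The WT mice on SSD differed from each other more than those of any other group for the type I chain. The SD of log2 Col1a1 was 1.35 in WT mice on SSD against 0.43 in WT mice on NCD, 0.43 in Klrk1-/- mice on NCD and 0.46 on SSD. Over the 10 chains of types I, III, V (α1 and α2), VI (α1 to α3) and IV (α1 and α2), mouse 1 was the highest of the 5 for 10 and mouse 5 the lowest for 10, and mouse 1 was 1.96 to 3.75 times the group median. Over the 26 collagens with a mean of at least 10, mouse 1 was highest for 15 and lowest for 6. Mouse 5 was lowest for 16 of the 26 and highest for 3. Markers of several cell types were highest in mouse 1 and lowest in mouse 5 as well. The counts of markers that rose stand beside the 17.3% of all genes tested that rose. The summed level of 6 markers of activated stellate cells or myofibroblasts, of which 3 rose in WT mice on SSD, was 2222, 1188, 1152, 855 and 392 in SSD mice 1 to 5 and 411 to 592 on NCD. Timp1 was among the 3 and, with a mean of 5.07 on NCD, passed the minimum only through the SSD mice. The 3 rises of this list therefore give no support for a change of the list. For 10 stellate cell markers, of which 5 rose, the sums were 6715, 4509, 4010.4, 4238 and 3478 on SSD and 2753 to 3234 on NCD. The 8 portal fibroblast markers, of which 7 were tested and 3 rose, summed to 1574, 681, 752, 636 and 429 on SSD and 330.4 to 476 on NCD, and 5 leukocyte markers, of which 4 were tested and 1 rose, to 5649.7, 2253, 2003, 2703 and 1618 and 1320.0 to 1840.5. The 5 smooth muscle markers, of which 3 were tested and 1 rose, were also highest in mouse 1 and lowest in mouse 5. They summed to 458, 277, 274, 307 and 198 on SSD and 139.9 to 233 on NCD. The endothelial, mesothelial and cholangiocyte lists had another order. The 8 endothelial markers, of which 5 rose, summed to 5080.4, 5009, 5923, 4634 and 5743 on SSD and 3135 to 5157 on NCD, highest in mouse 3 and lowest in mouse 4. Mesothelial and cholangiocyte markers, none of which passed, were also highest in mouse 3, but lowest in mouse 5 (70.2 to 137 and 199 to 419.7 on SSD). The 5 hepatocyte markers were lowest in mouse 1, at a sum of 1448700, and highest in mouse 3, at 1847400. None of these lists had a marker at 0 in every mouse of a group. Their part in the collagen values was not tested.

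Genes that act on collagen chains were read from 5 lists, beside the 17.3% of all genes that rose and 17.6% that fell. Of 19 tested genes of chain modification and folding, 4 rose and 2 fell in WT mice on SSD (median log2 fold change 0.12). Plod2, a lysyl hydroxylase that marks cross-linking sites, rose by 1.31 ± 0.38 on the log2 scale (SE), Fkbp10 by 1.07 ± 0.35, Crtap by 1.05 ± 0.15 and Sparc, a collagen chaperone outside the cell, by 1.04 ± 0.30. Ppib and Colgalt2 had log2 fold changes of -0.999 ± 0.11 and -1.87 ± 0.33. Of 10 tested genes of propeptide cleavage and cross-linking, Adamts14 (1.31 ± 0.33), Adamts2 (1.01 ± 0.35) and Pcolce2 (0.85 ± 0.27) rose, while Bmp1 (-0.60 ± 0.14) and Loxl4 (-0.85 ± 0.22) fell. Of 10 tested genes of breakdown and its inhibitors, 5 rose and Mmp19 fell (-0.52 ± 0.13). The collagenase Mmp13 (1.995 ± 0.47), the collagen-cleaving protease Ctsk (1.05 ± 0.32) and Mmp14 (0.32 ± 0.10) were among those that rose. The macrophage elastase Mmp12 was at 9.65, 4.03, 3.91 and 7.72 on NCD and 1060.2, 252, 188, 107 and 158 on SSD (5.14 ± 0.54), and the inhibitor Timp1, which also stands in the myofibroblast list, was at 6.03, 2.01, 7.82 and 4.41 and 167, 46.5, 40.9, 23.1 and 13.1 (2.86 ± 0.61). Both had their highest value in SSD mouse 1. Mmp12, Timp1 and Mmp13 had NCD means of 6.33, 5.07 and 4.95 and passed the minimum only through the SSD mice, as did Colgalt2 through the NCD mice, so the 5 rises of this list give no support for a change of the list. Of 7 tested receptors, Ddr1 (1.19 ± 0.28) and Ddr2 (0.68 ± 0.19) rose, and of 7 tested proteoglycans Bgn (0.65 ± 0.21) and Prelp (0.70 ± 0.17) rose.

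SSD against NCD in Klrk1-/- mice put the same question without the receptor. Of 25 collagens tested over 12904 genes, 6 rose (13.4% of all genes tested rose) and 7 fell (16% of all fell). Their median log2 fold change was 0.18, and that of all genes tested was -0.0020. Of 9 fibrillar chains 2 rose and 3 fell, and of 13 chains outside the fibrillar and type IV classes 4 rose and 4 fell. The 6 rises became 1 without SSD mouse 2, 2 without SSD mouse 1, 3 without NCD mouse 3 or 4 and 4 without NCD mouse 1, when 8.08% to 13.3% of all genes rose. They became 0 when all 4 groups shared 1 model (10.7% of all genes rose). The 7 falls became 4 without SSD mouse 3 (11.1% of all genes fell) and 5 with all 4 groups in 1 model (13.2% of all genes fell). With every mouse scaled to the same total, 11 rose and 6 fell, where 37.4% of all genes tested rose and 6.25% fell.

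Col3a1 was at 883, 1104, 706 and 898 in Klrk1-/- mice on NCD and 1233, 1727 and 1027 on SSD, and rose with overlapping groups (log2 fold change 0.55, SE 0.17, adjusted p = 0.0328). Col1a1 was at 379, 442, 219 and 341 on NCD and 556, 671 and 358 on SSD and missed the threshold (log2 fold change 0.61, SE 0.24, adjusted p = 0.0733). For Col1a2 the values were 483, 559, 347 and 502 on NCD and 641, 832 and 453 on SSD (log2 fold change 0.42, SE 0.20, adjusted p = 0.128). For all 3 chains the highest SSD mouse was mouse 2 and the lowest mouse 3. Col5a1 rose from 248, 276, 231 and 215 to 374, 377 and 276 (log2 fold change 0.49, SE 0.13, adjusted p = 0.0186), whereas Col5a2, at 62.0, 94.6, 53.5 and 73.8 and 87.9, 103 and 62.6, did not pass (log2 fold change 0.25, SE 0.22, adjusted p = 0.430).

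Type IV chains did not pass in Klrk1-/- mice, although Col4a1 and Col4a5 (-0.59 ± 0.21, adjusted p = 0.0557) had an unadjusted p under 0.05. Col4a1 was at 867, 866, 713 and 798 on NCD and 1129, 952 and 835 on SSD (log2 fold change 0.25, SE 0.11, adjusted p = 0.111), and Col4a2 at 556, 643, 579.5 and 701 and 801, 605 and 536 (log2 fold change 0.05, SE 0.13, adjusted p = 0.825), both with overlapping groups. In type VI, Col6a1 rose from 256, 314, 215 and 267 to 409, 505 and 295 (log2 fold change 0.59, SE 0.17, adjusted p = 0.0244). Col6a2, at 148, 203, 111 and 123 and 199, 247 and 184, had a log2 fold change of 0.55 ± 0.19 (adjusted p = 0.0511), and Col6a3, at 249, 220.2, 157 and 216 and 259, 361 and 243, one of 0.44 ± 0.17 (adjusted p = 0.0750). Col14a1 was at 1099, 1248, 1019.8 and 1118 on NCD and 2009, 1483 and 1502 on SSD, a rise in which all SSD mice lay above all NCD mice (log2 fold change 0.56, SE 0.11, adjusted p = 0.00385). Col16a1 (log2 fold change 0.48, SE 0.16, adjusted p = 0.0399) and the transmembrane Col13a1 (log2 fold change 0.50, SE 0.17, adjusted p = 0.0440) also rose without overlap. These were 3 of the 6 rises, against 94.4% of all genes called higher.

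All 7 collagens that fell in Klrk1-/- mice on SSD did so without overlap, at the smallest exact two-sided permutation p that 4 against 3 mice allow (0.0571). Of all genes called lower here, 93.9% did not overlap either. Col27a1 went from 3714, 3190.4, 4339 and 3691 on NCD to 1919.9, 1946 and 1522 on SSD (log2 fold change -1.06, SE 0.12, adjusted p = 5.35e-05), and Col5a3 from 3251, 3770.3, 4807 and 3464 to 2744, 2698 and 2289 (log2 fold change -0.56, SE 0.13, adjusted p = 0.00670). These are 2 abundant fibrillar chains that moved opposite to Col3a1, and they are the 2 falls that were not called with all 4 groups in 1 model. Col20a1 went from 136, 105, 155 and 103 to 23.2, 28.1 and 24 (log2 fold change -2.25, SE 0.19, adjusted p = 6.22e-06) and Col15a1 from 94.2, 121, 121 and 117 to 42.5, 65.0 and 65.1 (log2 fold change -0.98, SE 0.18, adjusted p = 0.00212). Col25a1 (-1.66 ± 0.48), the anchoring fibril chain Col7a1 (-1.34 ± 0.41) and Col11a2 (-0.80 ± 0.23) fell as well (adjusted p = 0.0227, 0.0296 and 0.0200). Col25a1, with a mean of 5.15 on SSD, passed the minimum only through the NCD mice, and 6 falls stand without it. Col18a1, at 20635, 19935, 22272 and 20566 and 18646, 16529 and 18293, did not overlap either, but missed the threshold (log2 fold change -0.23, SE 0.0867, adjusted p = 0.0684).

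On the same lists in Klrk1-/- mice, beside 13.4% of all genes that rose and 16% that fell, 4 of 19 genes of modification and folding rose (P3h2 1.01 ± 0.25, Crtap 0.61 ± 0.12, Mia3 0.50 ± 0.11 and Sparc 0.33 ± 0.0914 as log2 fold change with SE) and 3 fell (Colgalt2 -2.52 ± 0.40, Ppib -1.02 ± 0.12 and Fkbp14 -0.66 ± 0.14). Of 9 genes of cleavage and cross-linking, Adamts2 rose (0.65 ± 0.16) and Bmp1 (-0.72 ± 0.0931) and Loxl4 (-2.38 ± 0.21) fell. Mmp12, Timp2 and the membrane collagenase Mmp14 rose (1.62 ± 0.41, 0.69 ± 0.16 and 0.47 ± 0.0947) among 9 genes of breakdown. Mmp12 (mean 6.95 on NCD) and Colgalt2 (4.27 on SSD) passed the minimum through 1 group only. Of 7 proteoglycans that bind fibrils, 4 rose, namely Lum (0.92 ± 0.18), Prelp (0.79 ± 0.13), Dcn (0.45 ± 0.11) and Bgn (0.43 ± 0.10), and of 6 receptors Ddr1 rose (1.15 ± 0.22). Stellate cell markers summed to 3395 to 3583 on NCD and 4502 to 5192 on SSD (5 of 10 rose), markers of activated stellate cells or myofibroblasts to 478 to 723 and 717 to 901 (1 of 4 tested rose), and portal fibroblast markers to 298 to 386 and 465 to 589 (4 of 7 tested rose). Hepatocyte markers summed to 2157400 to 2901500 and 1964400 to 2125800 without overlap (4 of 5 fell), and endothelial markers to 4138 to 4523 and 4504 to 5813 (3 of 8 rose). Their part in the collagen values was not tested.

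Klrk1-/- against WT on SSD asked whether the collagens depended on the receptor under the diet. Of 26 collagens tested over 13116 genes, limma called none higher (1.22% of all genes tested were higher) and 1 lower (1.68% of all were lower), and 7 had an unadjusted p under 0.05 (22.9% of all genes did). edgeR and DESeq2 also called none higher (1.07% and 4.08% of all genes were higher) and called 1 and 2 lower (1.3% and 5.22% of all genes were lower). The median log2 fold change of the 26 was -0.43 against -0.0010 for all genes tested. The number of lower collagens was 3 without WT mouse 5, 2 without WT mouse 1 or WT mouse 4 and 0 without Klrk1-/- mouse 1, when 2.63%, 3.26%, 1.01% and 0.228% of all genes were lower. The median was -0.74 over 8 fibrillar chains, -0.56 over 4 type IV chains and -0.33 over the other 14.

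The collagen that passed was Col15a1, at 144, 231, 201, 126 and 162 in WT mice and 42.5, 65.0 and 65.1 in Klrk1-/- mice. The groups did not overlap (log2 fold change -1.56, SE 0.22, adjusted p = 0.00885, exact two-sided permutation p = 0.0357, the smallest possible), and the adjusted p ranged from 9.46e-08 to 0.0543 over 21 alternatives, the last without Klrk1-/- mouse 1. Of all genes called lower here, 100% did not overlap. Type XV is found in the basement membrane zone of vessels and muscle. The summed level of 8 endothelial markers, beside it, was 4634 to 5923 in WT mice and 4504 to 5813 in Klrk1-/- mice. Sums that did not overlap were those of 5 mesothelial markers, at 70.2 to 137 in WT and 36 to 58.9 in Klrk1-/- mice (1 of 4 tested, Upk3b, was lower, with a mean of 7.43 in Klrk1-/- mice that was under the minimum), of 5 leukocyte markers, at 1618 to 5649.7 and 1316 to 1413 (none of 5 passed), and of 5 hepatocyte markers, at 1448700 to 1847400 and 1964400 to 2125800 (none of 5 passed). None of these lists had a marker at 0 in every mouse of a group, and their part in the Col15a1 values was not tested.

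For the main fibril chains the groups overlapped. The Klrk1-/- values of Col1a1 given above, 556, 671 and 358, were no higher than those of WT mice 1 to 4, and the lowest of them equalled WT mouse 5 to within 1 count (log2 fold change -1.44, SE 0.63, adjusted p = 0.210). For Col3a1, all 3 Klrk1-/- mice lay between WT mouse 5 and WT mouse 4 (log2 fold change -1.05, SE 0.61, adjusted p = 0.342), and the same order held for Col1a2 (log2 fold change -1.04, SE 0.54, adjusted p = 0.279). Col5a2 (log2 fold change -1.13, SE 0.50, adjusted p = 0.208) and Col6a3 (log2 fold change -0.95, SE 0.35, adjusted p = 0.155) had differences of the same sign that also missed the threshold. With WT mouse 5 left out, Col1a1 and Col5a2 were called lower, when 2.63% of all genes were. For Col4a1, Klrk1-/- mice 2 and 3 lay below every WT mouse and Klrk1-/- mouse 1 did not (log2 fold change -0.71, SE 0.31, adjusted p = 0.204). Col12a1, a fibril-associated chain of dense connective tissue, was at 85.7, 117, 84.7, 54.2 and 78.4 in WT mice and 40.6, 53.8 and 43.7 in Klrk1-/- mice, without overlap, but missed the threshold (log2 fold change -0.82, SE 0.23, adjusted p = 0.0812). Of all genes tested in this comparison, 8.74% were lower in Klrk1-/- mice without overlap.

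Proportions between chains were compared within mice over 8 pairs and 4 comparisons, and none of the 32 exact permutation tests had an adjusted p under 0.05 (lowest 0.229, 6 with an unadjusted p under 0.05). The group sizes left little room for any to pass, and the 8 tests of SSD in Klrk1-/- mice could not go below an unadjusted 0.0571. On SSD, the log2 ratio of Col3a1 to Col1a1 was 1.04 ± 0.10 in WT and 1.43 ± 0.19 in Klrk1-/- mice, that of Col4a2 to Col4a1 was -0.92 ± 0.12 and -0.62 ± 0.088, and that of Col6a3 to Col6a1 was -1.04 ± 0.23 and -1.63 ± 0.19 (SD, n = 5 and 3). Each of the 3 was without overlap, at an exact unadjusted two-sided permutation p of 0.0357, the smallest that 5 against 3 mice allow. Of the pathway lists, Mmp12 was the gene that passed, at 1060.2, 252, 188, 107 and 158 in WT and 33.8, 22.5 and 14.6 in Klrk1-/- mice (-3.39 ± 0.61, adjusted p = 0.0228). The 9 receptors summed to 3906 to 4937 in WT and 3213 to 3639.9 in Klrk1-/- mice without overlap, and none of the 7 tested passed. Markers of activated stellate cells or myofibroblasts summed to 717 to 901 in Klrk1-/- mice on SSD, inside the WT range of 392 to 2222.

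Klrk1-/- against WT on NCD compared the genotypes on chow. Of 24 collagens tested over 12845 genes, 2 were higher (6.41% of all genes tested were higher) and 1 was lower (6.66% of all were lower), with 4 at an unadjusted p under 0.05 (31% of all genes were). Scaled to the same total for every mouse, 1 was higher (4.38% of all genes tested) and 1 lower (6.25%). The median log2 fold change was 0.017 against 0.0018 for all genes. Col15a1 was at 240.0, 239.6, 297 and 257 in WT and 94.2, 121, 121 and 117 in Klrk1-/- mice, so that every Klrk1-/- mouse was below every WT mouse (log2 fold change -1.19, SE 0.13, adjusted p = 2.27e-04). It passed under all 21 alternatives without a fold limit. Col4a5 (chrX:140258381-140472230), a type IV chain of specialised basement membranes, was at 24.1, 37.3, 28.7 and 44.1 in WT and 60.9, 68.4, 104 and 73.8 in Klrk1-/- mice, higher without overlap (log2 fold change 1.18, SE 0.23, adjusted p = 0.00783) and under all 21 alternatives. Of all genes called lower and higher on NCD, 85.4% and 87.4% did not overlap either. Col5a3 was at 1446, 1909, 2312 and 3787 and 3251, 3770.3, 4807 and 3464 and was called higher with overlapping groups (log2 fold change 0.77, SE 0.23, adjusted p = 0.0429), but it passed under only 8 of 21 alternatives, and without any 1 mouse except WT mouse 5 it was not called. Col1a1, Col1a2 and Col3a1 had log2 fold changes of -0.23 ± 0.22, 0.03 ± 0.16 and -0.21 ± 0.12 (SE), none past the threshold. Of the pathway lists, the cross-linking enzyme Loxl4 (1.49 ± 0.20) and the folding enzyme Fkbp14 (0.44 ± 0.13) were higher in Klrk1-/- mice, while P4ha1 (-0.58 ± 0.0875), P3h1 (-0.36 ± 0.0997) and Plod1 (-0.31 ± 0.0894), which hydroxylate prolines and lysines, were lower, as were Lum (-0.68 ± 0.18), Ddr1 (-0.83 ± 0.25) and Timp2 (-0.59 ± 0.16). The 9 receptors summed to 3469 to 4048.5 in WT and 2993 to 3367 in Klrk1-/- mice, without overlap on NCD as on SSD. Sums of breakdown genes (3320 to 3803 and 2604 to 3123) and of modification and folding genes (61513 to 83474 and 49431 to 60795) did not overlap either. Stellate cell markers summed to 2753 to 3234 in WT and 3395 to 3583 in Klrk1-/- mice without overlap, although none of 10 passed. The sums of endothelial (3135 to 5157 and 4138 to 4523), cholangiocyte (229 to 359 and 203 to 261), portal fibroblast (330.4 to 476 and 298 to 386) and myofibroblast markers (411 to 592 and 478 to 723) overlapped, and 1 marker of each passed, Stab2 and Postn higher and Krt19 and Cd34 lower. Leukocyte markers (1320 to 1840.5 and 1239.9 to 1423.5) overlapped too, and 1 of 4 tested was higher. Their part in the collagen values was not tested.

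Whether the diet acted differently in the 2 genotypes was tested as the interaction of diet and genotype. limma called 0 of 26 collagens higher (0.321% of all 13068 genes tested were called higher) and 0 lower (0.559% of all were called lower), and 3 had an unadjusted p under 0.05 (17.3% of all genes did). edgeR and DESeq2 also called 0, where edgeR called 0.275% of all genes higher and 0.413% lower, and DESeq2 1.42% and 2.1%. The median log2 interaction was -0.53 over the 26, -0.92 over 8 fibrillar chains and 0.00041 over all genes tested, and 3 of the 26 were above 0. Col1a1 had an interaction of -1.21 ± 0.72 (adjusted p = 0.398), Col3a1 of -0.83 ± 0.67 (adjusted p = 0.538) and Col4a1 of -0.73 ± 0.34 (adjusted p = 0.275). The 3 with an unadjusted p under 0.05 were Col4a1, Col5a3 (-1.02 ± 0.35, adjusted p = 0.153) and Col4a5 (-1.36 ± 0.48, adjusted p = 0.165). A difference of the diet response between genotypes did not pass for any tested collagen at this number of mice, which does not show that the responses were alike. Each of the 4 groups enters 2 of the 4 comparisons between groups, so comparisons that share a group share its mice.

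**Figure D4:**
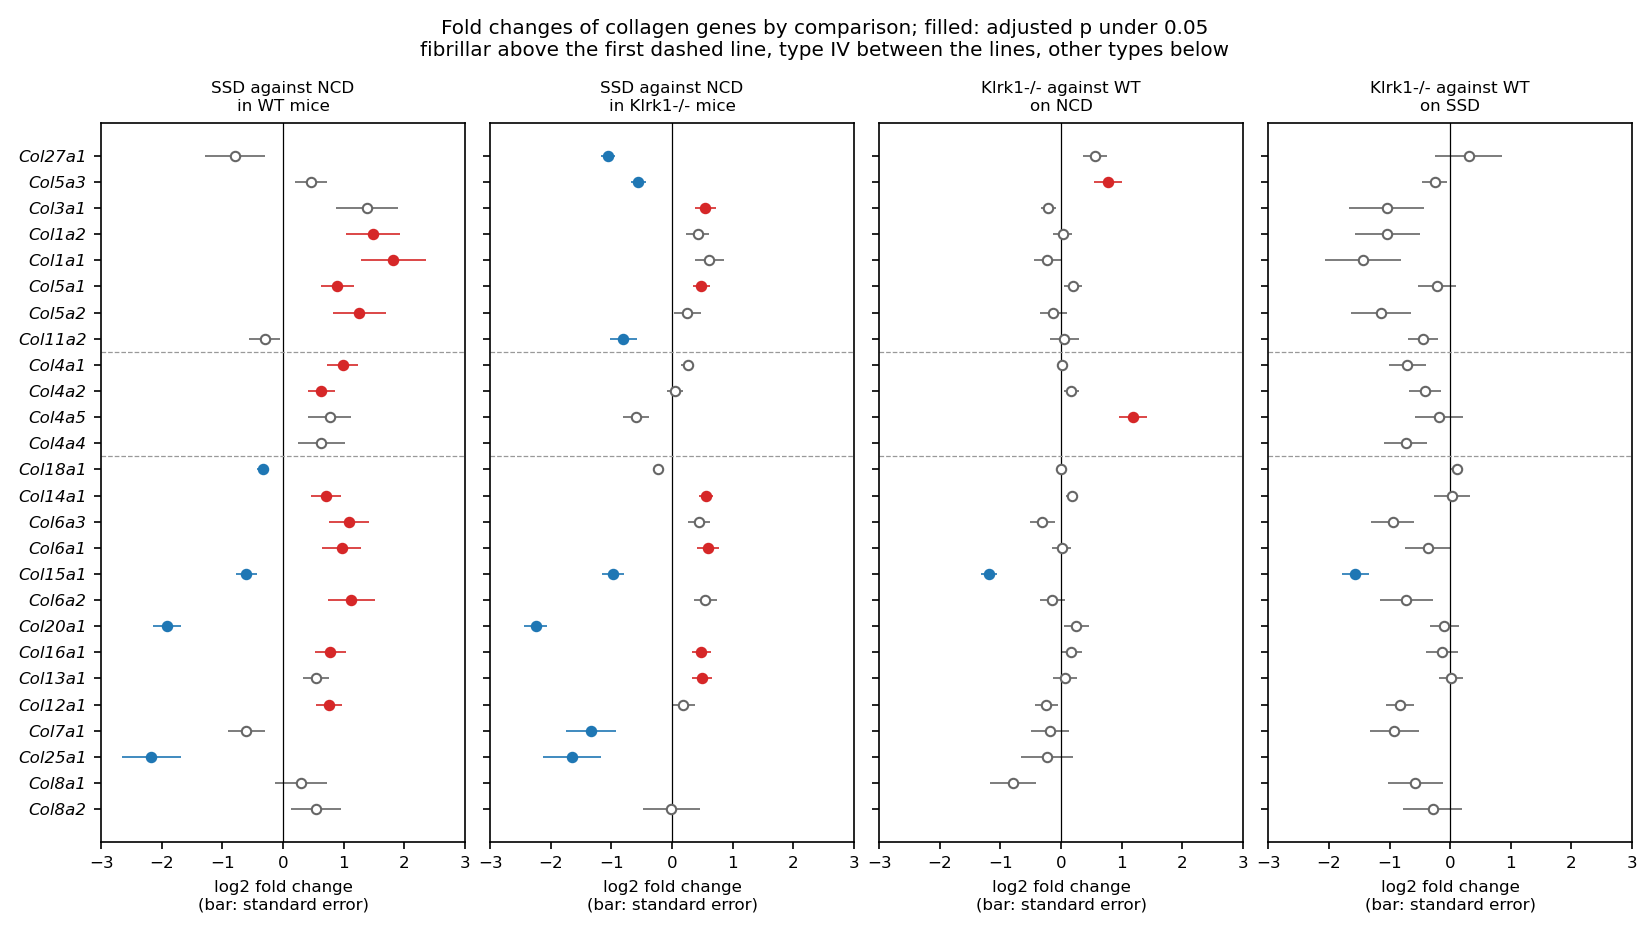
Log2 fold changes (points) with standard errors (bars) of the tested collagens in the 4 comparisons, with filled points where the adjusted p is under 0.05, red for higher and blue for lower. Most fibrillar, type IV and type VI chains lie right of 0 for SSD in WT mice (Col1a1 at 1.82), and Col15a1 lies left of 0 in all 4 comparisons.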

How the data were processed

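Whole-liver RNA of 16 mice was sequenced as 100-base single reads. Per the authors' methods and processing notes, reads were checked with FastQC, aligned with STAR to GRCm39 and counted with FeatureCounts on GENCODE. The labels name an mRNA library kit and the methods a total RNA kit, and whether counting used strand is not given in the sources used here. The deposited values are normalized counts, a signal per gene that the authors made by dividing counts by a size factor for each mouse, beside a deposited gene length in bases. Columns with the authors' own fold changes and p-values were not used. Every column of values was matched to a mouse by its title (0 left over).

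The values were whole multiples of 1 read for 100% of values (tolerance 0.1), which gave back the reads and 19892025 to 28936707 reads per mouse. On those reads edgeR 4.0.16 called 2267 genes higher and 2332 lower for SSD in WT mice, and DESeq2 1.42.0 called 2499 and 2438. Intervals that depth alone would give cover counting error only, and the p-values here set the difference between groups against the spread between these mice.

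The main test was limma 3.58.1 (R 4.3.3) with a variance trend on log2(normalized count + 1) over all genes with a mean of at least 10 in the mice compared, with Benjamini-Hochberg adjustment over all genes tested and a threshold of 0.05. Fold changes are on that scale and understate the change of low genes. The interaction used all 16 mice. Single values and ratios of chains used exact two-sided permutation tests (scipy 1.17.1), whose smallest p is 0.0159 for 5 against 4 mice, 0.0357 for 5 against 3, 0.0286 for 4 against 4 and 0.0571 for 4 against 3. Levels per kb used the length of the GENCODE canonical transcript. How the deposited length was made is not given in the sources used here. Gene coordinates are those of the deposited table and sequences are from GRCm39. The promoter and coding sequences were cut at GENCODE canonical transcripts.

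Values in every mouse were given for collagens that passed in at least 1 comparison and were among the 12 with the highest mean, and for the main chains of types I, III, IV, V and VI. Col4a5, Col12a1, Col15a1, Col20a1 and Col25a1 were outside this rule and were given by mouse after their values were seen. Members of pathway lists were named where they passed, at most 6 per list. The members, lists and rules were chosen with earlier results of these data known. Alternatives were other pseudocounts, minimum means and fold limits, other variance estimates, weights and scalings, edgeR and DESeq2, a replicate block, all groups in 1 model, and each mouse left out, and 2 other transcript lengths for class shares were chosen after seeing the data. The test code was tested on simulated data with 1 setting of spread between mice for all genes and groups. Those data lacked the wider spread of WT mice on SSD, so they do not show how the test behaves there. Pairs of mice of a group differed by more than counting noise in every case. In WT mice on SSD, pairs that held mouse 1 had a chi-square of 69.4 to 95.6 per gene, and the other pairs 17.85 to 34.1. Pairs in the other groups were at 13.5 to 61.9.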

Additional observations from a re-analysis of the deposited data

Results flagged for a closer look

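For 26 tested collagens, the highest and lowest mouse of each group of 4 or 5 was compared with the rest, 78 groups in all, and in 5 of them 1 mouse stood apart by Dixon's criterion, where chance gives about 1 group in 20. In WT mice on SSD, mouse 1 was low for Col5a3, at 1838 normalized counts against 3387 to 3708 in the other 4 mice. The same mouse was low for Col27a1, at 338.8 against 1704 to 2767. It was also the highest of its group for the types I, III, IV and VI chains described above. In WT mice on NCD, mouse 3 was high for Col3a1, at 1164 against 981 to 999.8, and for Col8a2, a network-forming chain, at 11.73 against 6.62 to 7.24. In Klrk1-/- mice on NCD, mouse 1 was low for Col15a1, at 94.2 against 117 to 121, on the side away from the WT mice.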

How the results depend on the processing

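Counts of collagens that passed moved with the setting. For SSD in WT mice, the 12 rises became 7 without a variance trend (16.3% of all genes tested rose), 4 with robust variances (17.1%, so that 4 of 26 collagens is no larger a share) and 5 with a fold limit of 2 (6.11%), and 2 to 13 with 1 mouse left out. The 4 falls became 2 with every mouse scaled to the same total (5.5% of all genes fell), 2 with a fold limit of 2 (2.9%), and 1 to 4 with 1 mouse left out. For Klrk1-/- against WT on SSD, the 1 lower collagen became 3 with array weights, 2 with DESeq2, 2 with all 4 groups in 1 model (5.83%, 5.22% and 4.05% of all genes), and 0 to 3 with 1 mouse left out, and higher collagens stayed at 0 (0 to 0 with 1 mouse left out). For Klrk1-/- against WT on NCD, the 2 higher collagens became 1 with no minimum mean, without a variance trend, with robust variances, with the same total, with edgeR and with a fold limit of 2 (3.97%, 3.15%, 6.7%, 4.38%, 6.59% and 0.849% of all genes were higher), and 1 to 3 with 1 mouse left out. The 1 lower became 2 with array weights (8.27% of all genes), and 1 to 1 with 1 mouse left out. For SSD in Klrk1-/- mice, the 6 rises became 3 without a variance trend (11.9% of all genes), 11 with the same total (37.4%), 0 with all 4 groups in 1 model (10.7%), 1 with a fold limit of 1.5 (6.54%) and 0 with one of 2 (2.53%), and 1 to 6 with 1 mouse left out. The 7 falls became 4 with a minimum mean of 50 (17.9% of all genes) and 4 with a fold limit of 2 (2.92%), and 4 to 7 with 1 mouse left out. The interaction had 1 lower collagen with array weights (1.94% of all genes), and 0 to 1 with 1 mouse left out, the 1 without WT NCD mouse 5 (0.574%) (0 to 0 higher). No ratio of chains passed in any case, which says nothing of stability since the group sizes left little room to pass. The fibrillar share in Klrk1-/- mice on NCD, 25.2%, was 28.1% when not divided by length, 26.1% with the deposited length and 23.3% with summed exons, and that in WT mice on SSD, 33.3%, was 34.6%, 38.8% and 30.1%. Col18a1 for SSD in WT mice changed sign, from -0.33 to 0.011 with the same total and to 0.0100 with quantile normalization, and Col5a1 for Klrk1-/- against WT on SSD changed from -0.22 to 0.023 without WT SSD mouse 1 (-0.42 to 0.023 over the mice left out). Scaling to the same total moved the median of all genes to 0.342 in WT and 0.253 in Klrk1-/- mice for the diet, to -0.115 and -0.0243 for genotype on SSD and NCD, and to -0.0879 for the interaction. The cause of these shifts was not tested.

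Mice with the same number in 2 groups are different mice, and their deviations correlated at -0.13 to 0.25, so the numbers do not pair them. With a replicate block on the shared numbers, 4 collagens rose and 3 fell for SSD in WT mice (10.9% and 11.9% of all genes tested), and 9 of 27 were lower for genotype on SSD (3.4% of all), where WT mice 4 and 5 have no partner and drop out. Those 9 were Col15a1, Col12a1, Col1a1, Col1a2, Col3a1, Col4a1, Col4a2, Col5a2 and Col6a2. For genotype on NCD 3 were higher and 1 lower (8.7% and 9.67% of all), and for SSD in Klrk1-/- mice 7 rose and 7 fell (11.4% and 13.5% of all).

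The groups hold 3 to 5 mice, and no smallest detectable difference was computed. Collagens with a mean under 10 normalized counts in the mice compared stayed out of the main tests. With no minimum mean, 39 or 40 collagens were tested and none passed beyond those called with the minimum.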
